A study of Mus musculus with 29 samples.

Results

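The amino acid transporters examined here are 10 solute carrier genes measured in mouse lung: Slc38a1, Slc38a2, Slc38a4, Slc7a5, Slc7a8, Slc7a7, Slc7a2, Slc7a11, Slc3a2 and Slc1a5. Every probe whose transcript accession belonged to a member was taken, which gave 16 probes of the 41174 on the array. Of these, 15 passed the filter on dim probes, and all 10 genes were among the 15350 tested. Each gene was represented by its brighter probe. The mice were C57BL/6, 6 to 8 weeks old. Knockout (KO) mice lacked Klf15, a Krüppel-like transcription factor that glucocorticoids induce, and wild-type (WT) mice carried it. The labels do not say how Klf15 was deleted. The mice received either the synthetic glucocorticoid dexamethasone (dex) at 2.5 mg/kg or saline, and lung RNA was taken after 8 h or 4 h. Single-colour arrays covered 4 KO dex 8 h, 4 KO dex 4 h, 3 WT dex 8 h, 4 WT dex 4 h, 4 KO saline 8 h, 3 KO saline 4 h, 3 WT saline 8 h and 4 WT saline 4 h lungs. The design asks how the response to the glucocorticoid receptor depends on Klf15.

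Amino acids enter cells through carriers with overlapping substrates. Slc38a1, Slc38a2 and Slc38a4 encode the sodium-coupled neutral transporters SNAT1, SNAT2 and SNAT4, which take up glutamine, alanine and similar residues; SNAT4 is best known in liver and placenta. Slc7a5 and Slc7a8 encode LAT1 and LAT2, exchangers that bring in leucine and other large neutral amino acids, and Slc7a7 encodes y+LAT1, which exports cationic amino acids. These light chains and xCT, the cystine/glutamate exchanger encoded by Slc7a11, reach the membrane bound to the heavy chain CD98, the product of Slc3a2. Slc7a2 encodes the arginine and lysine transporter CAT2, and Slc1a5 encodes the glutamine exchanger ASCT2. Glucocorticoids shift amino acids between tissues. Klf15 is known in liver and muscle as a regulator of amino acid breakdown.

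Slc38a1, Slc38a2 and Slc38a4 are consecutive protein-coding genes on chromosome 15 in the RefSeq table of GRCm38.p6. Slc7a7 and Slc7a8 lie on chromosome 14, Slc7a5 and Slc7a2 on chromosome 8, and Slc7a11, Slc1a5 and Slc3a2 on chromosomes 3, 7 and 19. Windows of 300 bases around RefSeq start sites were available for 6 of the 10 genes. Those of 4 members that moved with dexamethasone are shown because they can be read against the values that follow, all on the minus strand of GRCm38.p6, with motif matches in capitals. The windows are chr15:97055907-97056206 for Slc38a4, chr15:96699679-96699978 for Slc38a2, chr14:54781837-54782136 for Slc7a8 and chr3:50443564-50443863 for Slc7a11.
Slc38a4: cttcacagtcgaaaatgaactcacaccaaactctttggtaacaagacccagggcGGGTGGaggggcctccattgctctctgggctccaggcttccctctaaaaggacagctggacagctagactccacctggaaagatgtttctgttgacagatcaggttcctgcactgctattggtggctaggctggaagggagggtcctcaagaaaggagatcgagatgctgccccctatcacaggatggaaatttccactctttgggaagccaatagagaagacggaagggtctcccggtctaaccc
Slc38a2: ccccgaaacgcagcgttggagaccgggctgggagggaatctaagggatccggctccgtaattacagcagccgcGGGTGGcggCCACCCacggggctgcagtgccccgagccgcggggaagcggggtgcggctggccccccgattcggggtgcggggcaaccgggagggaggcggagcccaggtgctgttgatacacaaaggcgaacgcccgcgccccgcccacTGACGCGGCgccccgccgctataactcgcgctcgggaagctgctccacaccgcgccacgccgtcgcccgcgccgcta
Slc7a8: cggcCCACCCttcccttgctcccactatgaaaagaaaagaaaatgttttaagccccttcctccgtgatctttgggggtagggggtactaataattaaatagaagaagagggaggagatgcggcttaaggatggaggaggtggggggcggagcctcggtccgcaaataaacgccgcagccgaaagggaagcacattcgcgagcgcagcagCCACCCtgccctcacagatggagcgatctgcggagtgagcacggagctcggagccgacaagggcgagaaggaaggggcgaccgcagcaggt
Slc7a11: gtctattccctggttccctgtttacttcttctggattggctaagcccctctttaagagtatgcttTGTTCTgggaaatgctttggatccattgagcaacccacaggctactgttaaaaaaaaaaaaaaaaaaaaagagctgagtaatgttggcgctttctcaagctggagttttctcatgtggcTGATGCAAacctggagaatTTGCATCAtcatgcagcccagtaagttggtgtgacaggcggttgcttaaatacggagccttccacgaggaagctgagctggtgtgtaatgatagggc
The motifs were searched on both strands. The palindromic glucocorticoid receptor site, GNACA and TGTNC with 3 bases between them, was in 0.475% of all 32851 windows and in none of those matched to the members. The shorter receptor element AGAACA was in 19% of windows and occurred, reversed, in Slc7a11 at -185 from the start site. The Krüppel-like factor box CCACCC was in 31.5% of windows; it occurred, reversed, in Slc38a4 at -196 and in Slc38a2 at -177, and as written in Slc38a2 at -168 and in Slc7a8 at -246 and -41. The amino acid response element TGATGNAA, bound by ATF4, was in 3.97% of windows and occurred in Slc7a11 at -66 and, reversed, at -47. The antioxidant element core TGACNNNGC, bound by NRF2, was in 12.4% of windows and occurred in Slc38a2 at -27. Other start sites of Slc38a4 had their own windows, of which that at chr15:97020310-97020609 held AGAACA, reversed, at -108. The Slc38a4 window at chr15:97031164-97031463 held none of these motifs. Windows of Slc7a7, a member that moved in WT lungs, are not shown. They held the shorter receptor element, the Krüppel-like factor box and the amino acid response element.

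Values are log2 signals relative to the 75th percentile of each array, and a call is a Benjamini-Hochberg adjusted p under 0.05 over all 15350 genes in a limma fit to all 29 arrays. The labels speak of biologic quadruplicates, and p-values measure the spread between these samples. Klf15 itself checked the genotype labels: its signal was lower in KO lungs by 2.91 to 3.05 on the log2 scale in all 4 settings, although where its probes lie relative to the deletion is not given. Fkbp5, a standard glucocorticoid target, was 2.49-fold and 18.7-fold higher under dex in KO lungs at 8 h and 4 h. In WT lungs Fkbp5 was 8.40-fold higher at 4 h and had a log2 change of -0.02 at 8 h (adjusted p = 0.982). Tsc22d3, another such target, was called higher in all 4 dex comparisons. The 7 KO saline arrays stood apart in the ratio of bright to dim probes. Relative to its mean over all 29 arrays, the ratio was -0.368 to -0.116 on the log2 scale, against -0.0836 to 0.286 on the other 22 arrays. The KO results of the members were therefore also computed with that ratio as a covariate, as were, by a choice made after seeing the data, those of Slc38a5, Glul, Cth and Nfe2l2. The 2 ranges of the ratio did not overlap, so this covariate and the KO saline groups cannot be fully told apart. A call lost with the covariate can therefore reflect lower precision alone. Arrays of 1 slide had a consensus correlation of 0.41. Markers of alveolar type 2 cells summed to 97.4 to 131.7 times the 75th percentile on each array (6 genes), and liver markers to 0.249 to 0.870 times (5 genes).

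Dexamethasone raised Slc38a4, Slc38a2 and Slc7a8 at both times in both genotypes, raised Slc7a5 at 4 h in both, and lowered Slc7a7 in WT lungs. In KO lungs, 5 of 10 were called higher and 0 lower at 8 h, where 25.8% of all genes were called higher and 17.2% lower. At 4 h, 5 were called higher and 1 lower, against 25.0% and 17.6% of all genes. In WT lungs, 3 were called higher and 1 lower at 8 h, against 9.32% and 14.3% of all genes, and 4 higher and 1 lower at 4 h, against 14.3% and 22.3%. The members' median log2 change was 0.37 in KO at 8 h, 0.40 in KO at 4 h, 0.21 in WT at 8 h and 0.23 in WT at 4 h, beside 0.11, 0.05, -0.06 and -0.03 over all genes. Some slides held 1 dex and 1 saline array of 1 genotype and time: 2 slides each for KO at 8 h and WT at 4 h, and 1 each for the others. There the called members had the sign of the fit in 10 of 10 values in KO at 8 h and 6 of 6 in KO at 4 h. In WT this was so in 4 of 4 at 8 h and 10 of 10 at 4 h. These arrays are also in the fit. Where the groups of a member did not overlap, as for every called member in WT, the sign was fixed in advance, so the counts are only a description. In bulk lung, fewer cells of a type and less RNA per cell cannot be told apart. T, B and NK cell marker sums were lower under dex in both genotypes; T cell markers summed to 2.31 to 2.66 in KO dex 8 h and 2.59 to 2.97 in WT dex 8 h lungs, against 5.67 to 5.92 in KO saline 8 h and 6.50 to 7.62 in WT saline 8 h lungs. Their part in the members' changes was not tested.

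**Figure D1:**
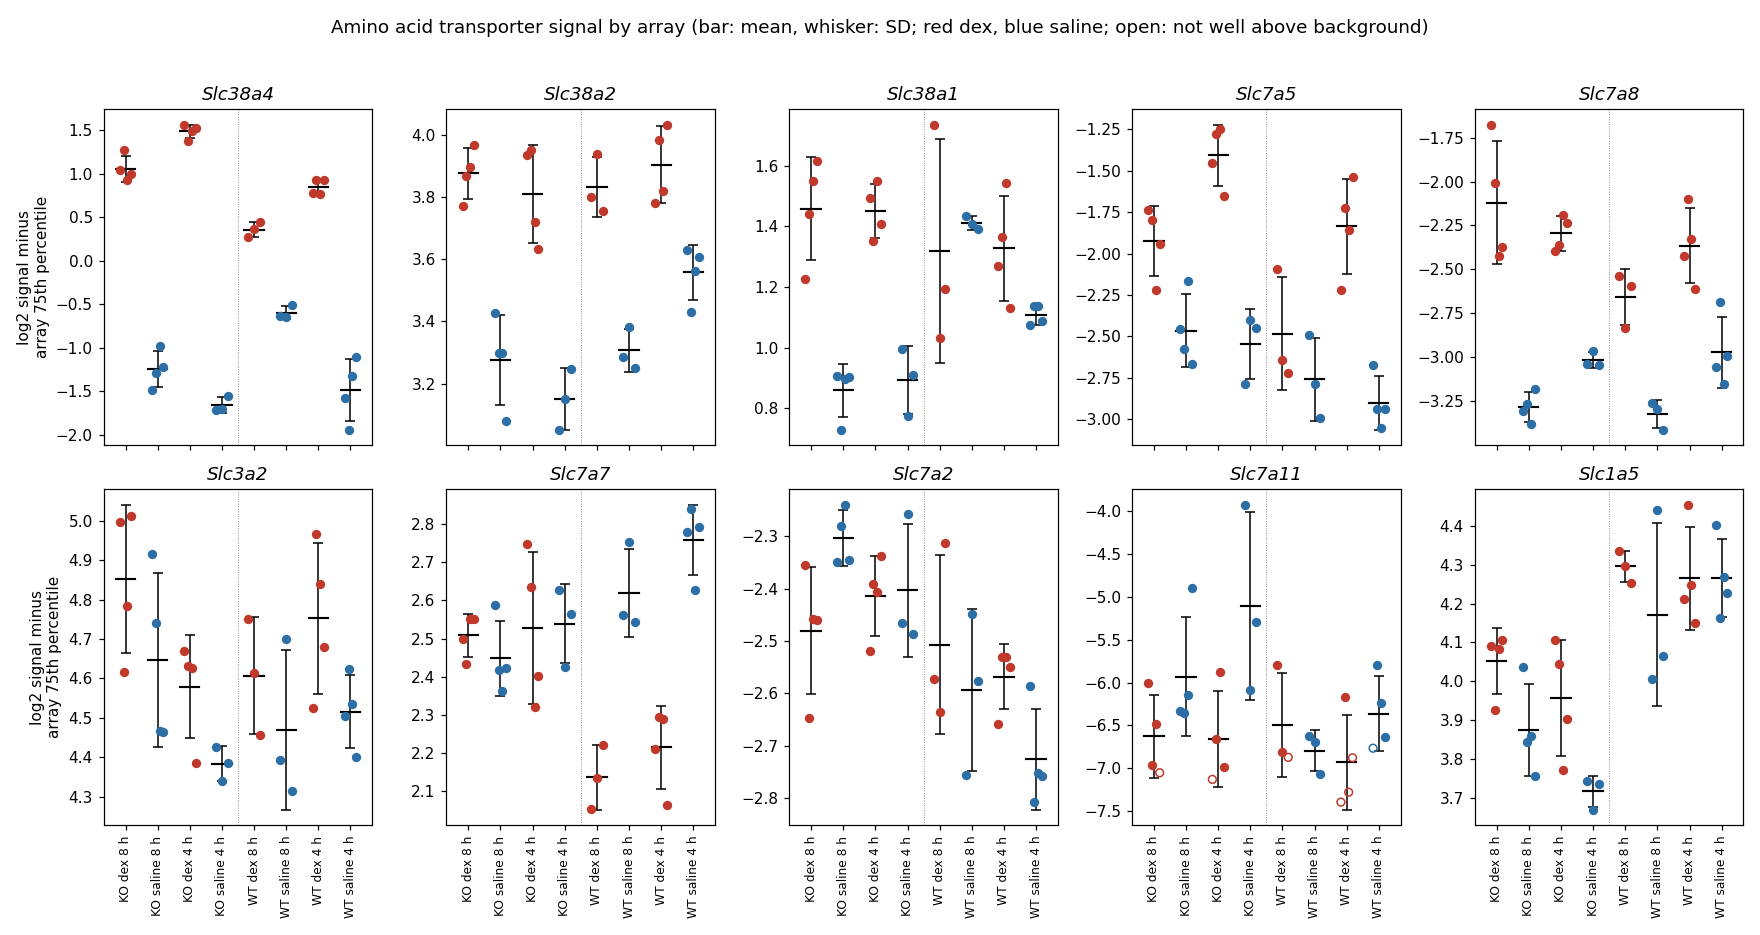
Signal of the 10 amino acid transporters on each of the 29 arrays, in log2 units relative to the 75th percentile of the array (y axis, its own range in each panel), by group (x axis); bars are means, whiskers SD, red dex, blue saline, and open circles arrays where the probe was not well above background. The Slc38a4 dex arrays lie above all saline arrays in both genotypes, and the Slc7a7 dex arrays lie below the saline arrays in WT.

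Slc38a4 (SNAT4) showed the widest change of the members in each of the 4 dex comparisons. Its log2 signal was 1.04, 1.27, 0.93 and 1.0 in KO dex 8 h lungs, against -1.48, -1.29, -0.97 and -1.22 in KO saline 8 h lungs. At 4 h it was 1.56, 1.38, 1.49 and 1.53 in KO dex lungs, against -1.72, -1.70 and -1.55 in KO saline lungs. No dex array overlapped a saline array, and the rise was 4.93-fold at 8 h (log2 2.30, SE 0.125, adjusted p = 2.79e-12) and 8.85-fold at 4 h (log2 3.15, SE 0.135, adjusted p = 4.01e-14). In WT lungs the signal was 0.27, 0.37 and 0.45 under dex at 8 h, against -0.63, -0.65 and -0.51 under saline. At 4 h it was 0.78, 0.93, 0.77 and 0.93 in WT dex lungs, against -1.58, -1.94, -1.32 and -1.11 in WT saline lungs. The WT rise was 1.94-fold at 8 h (log2 0.96, SE 0.145, adjusted p = 3.62e-05) and 5.06-fold at 4 h (log2 2.34, SE 0.125, adjusted p = 1.38e-12). The group means ran from KO dex 4 h at the top through KO dex 8 h, WT dex 4 h and WT dex 8 h to WT saline 8 h, KO saline 8 h, WT saline 4 h and KO saline 4 h. WT saline 4 h arrays overlapped those of KO saline 8 h and KO saline 4 h, and the lowest KO dex 8 h array equalled the highest WT dex 4 h array to 2 decimals. A second, dimmer probe was called higher in the same 4 comparisons, with log2 changes of 2.03 in KO at 8 h, 2.09 in KO at 4 h, 1.01 in WT at 8 h and 1.63 in WT at 4 h. Within single slides the log2 change was 2.48 and 2.22 in KO at 8 h, 3.04 in KO at 4 h, 0.96 in WT at 8 h and 2.03 and 2.09 in WT at 4 h. Liver markers, low in every group, summed to 0.484 to 0.832 in KO dex 8 h lungs against 0.249 to 0.565 in KO saline 8 h lungs, and to 0.352 to 0.459 in KO dex 4 h against 0.302 to 0.383 in KO saline 4 h lungs. Adipocyte markers summed to 14.8 to 34.5 in KO dex 8 h lungs against 6.09 to 6.92 in KO saline 8 h lungs, but overlapped at 4 h, at 8.15 to 18.6 in KO dex and 8.06 to 16.5 in KO saline lungs. In WT lungs, where Slc38a4 also rose, both sums overlapped at both times. Liver markers summed to 0.321 to 0.870 in WT dex 8 h against 0.305 to 0.370 in WT saline 8 h lungs, and to 0.322 to 0.401 in WT dex 4 h against 0.253 to 0.403 in WT saline 4 h lungs. Adipocyte markers summed to 11.6 to 12.4 in WT dex 8 h against 7.69 to 12.7 in WT saline 8 h lungs, and to 12.04 to 13.76 in WT dex 4 h against 7.23 to 12.9 in WT saline 4 h lungs. The part of these markers in the Slc38a4 changes of either genotype was not tested.

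Slc38a2 (SNAT2), its neighbour, rose in all 4 comparisons by smaller factors. It measured 3.77, 3.87, 3.90 and 3.97 in KO dex 8 h lungs, against 3.43, 3.30, 3.30 and 3.08 in KO saline 8 h lungs, and the groups did not overlap. The rise was 1.51-fold in KO at 8 h (log2 0.60, SE 0.0828, adjusted p = 4.29e-06) and 1.58-fold in KO at 4 h (log2 0.66, SE 0.0895, adjusted p = 2.94e-06). In WT lungs it was 3.80, 3.94 and 3.76 under dex at 8 h, against 3.29, 3.38 and 3.25 under saline, a 1.44-fold rise (log2 0.52, adjusted p = 0.000283). The WT rise at 4 h was 1.27-fold (log2 0.35, adjusted p = 0.00189) and was not called with each array scaled to its median (log2 0.25, adjusted p = 0.17). With the bright to dim ratio as a covariate, the KO changes were 0.33 at 8 h and 0.33 at 4 h on the log2 scale and were still called. The dimmer Slc38a2 probe was called higher in 3 of the 4 comparisons, by 0.83 in KO at 8 h, 0.76 in KO at 4 h and 0.69 in WT at 4 h, and had a log2 change of 0.40 in WT at 8 h (adjusted p = 0.111).

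The remaining neighbour, Slc38a1 (SNAT1), was called higher in KO lungs on its brighter probe alone. That probe measured 1.23, 1.44, 1.55 and 1.62 in KO dex 8 h lungs, against 0.91, 0.73, 0.90 and 0.90 in KO saline 8 h lungs, a difference of 0.60 (SE 0.111, adjusted p = 0.000145). At 4 h the KO difference was 0.56 (SE 0.120, adjusted p = 0.000639). The dimmer probe, well above background on all 29 arrays, went the other way, with log2 changes of -0.25 in KO at 8 h (adjusted p = 0.134) and -0.47 in KO at 4 h (adjusted p = 0.00875), so the direction for Slc38a1 depends on the probe. The mean of both probes gave log2 changes of 0.17 at 8 h and 0.04 at 4 h, which were not called. The ratio covariate also ended the KO call of the brighter probe at 4 h (log2 0.38, adjusted p = 0.12). In WT lungs the brighter probe had log2 changes of -0.09 at 8 h (95% confidence interval -0.36 to 0.17) and 0.22 at 4 h (-0.01 to 0.45).

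**Figure D2:**
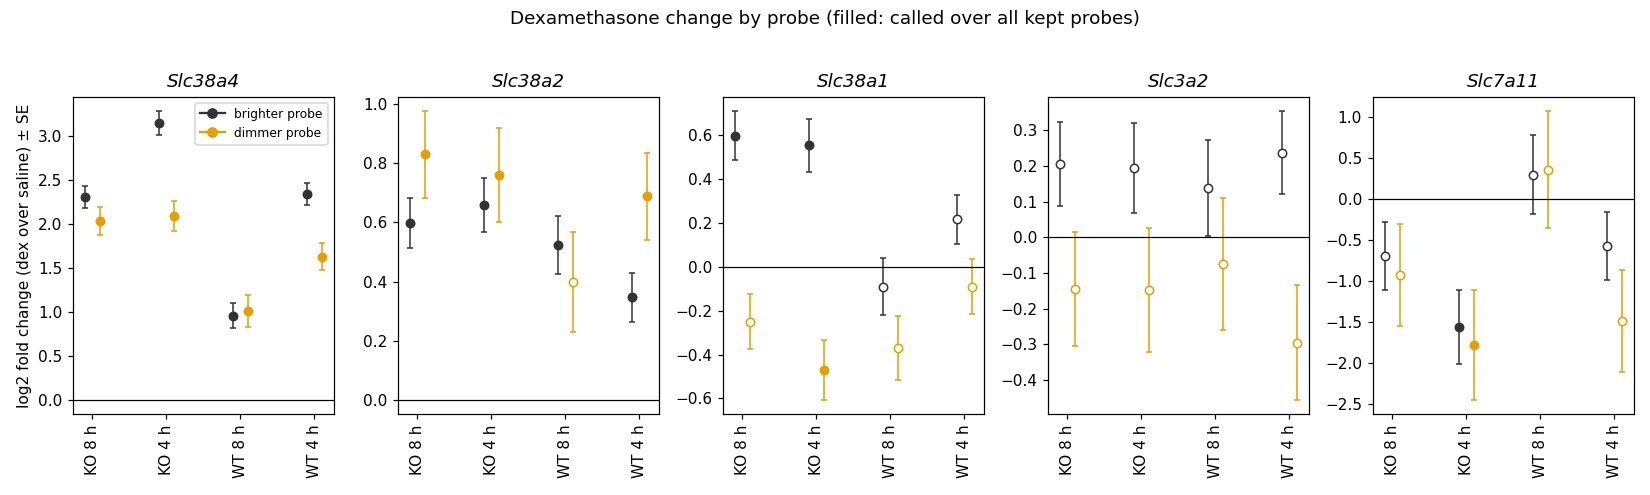
Log2 change, dex over saline, of the 2 kept probes of 5 transporters (y axis, its own range in each panel; points with SE) in KO and WT lungs at 8 h and 4 h (x axis); filled points are called over all kept probes. Both Slc38a4 probes are high in all 4 comparisons, while the Slc38a1 probes lie on opposite sides of 0 in KO lungs.

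Among the leucine exchangers, Slc7a5 (LAT1) rose at 4 h in both genotypes. It measured -1.45, -1.28, -1.25 and -1.65 in KO dex 4 h lungs, against -2.79, -2.40 and -2.45 in KO saline 4 h lungs. In WT lungs at 4 h it was -2.22, -1.72, -1.86 and -1.54 under dex, against -2.67, -2.94, -3.06 and -2.94 under saline. The groups did not overlap, and the rise was 2.20-fold in KO (log2 1.14, SE 0.176, adjusted p = 1.49e-05) and 2.09-fold in WT (log2 1.07, SE 0.163, adjusted p = 1.37e-05). At 8 h the KO difference was 0.54 with overlapping arrays (SE 0.163, adjusted p = 0.00954), and it was not called with the ratio covariate (log2 0.39, adjusted p = 0.21). The WT difference at 8 h was 0.27 (95% confidence interval -0.12 to 0.66, adjusted p = 0.328). The change of the dex effect between the times, 8 h minus 4 h, was -0.60 in KO (adjusted p = 0.241) and -0.79 in WT (adjusted p = 0.0608), and neither was called.

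Slc7a8 (LAT2) rose in all 4 comparisons. It measured -1.68, -2.01, -2.43 and -2.37 in KO dex 8 h lungs, against -3.31, -3.27, -3.38 and -3.18 in KO saline 8 h lungs. At 8 h in WT it was -2.54, -2.84 and -2.59 under dex, against -3.26, -3.30 and -3.41 under saline. No dex array reached down to a saline array, and the rise was 2.24-fold in KO at 8 h (log2 1.16, SE 0.131, adjusted p = 2.78e-07) and 1.59-fold in WT at 8 h (log2 0.67, SE 0.152, adjusted p = 0.00229). At 4 h the rise was 1.65-fold in KO (log2 0.72, SE 0.142, adjusted p = 0.000256) and 1.52-fold in WT (log2 0.61, SE 0.131, adjusted p = 0.000745). The single probe of Slc7a8 leaves no second measurement.

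Slc3a2, the heavy chain that both LAT proteins need, was not called in any of the 4 comparisons. Its log2 changes were 0.21 in KO at 8 h (95% confidence interval -0.03 to 0.45), 0.20 in KO at 4 h (-0.06 to 0.45), 0.14 in WT at 8 h (-0.14 to 0.41) and 0.24 in WT at 4 h (-0.00 to 0.48). Blocking on the slide made the WT change at 4 h a call, at 0.38 with a fixed block (adjusted p = 0.000362). The dimmer Slc3a2 probe had changes of -0.29 to -0.08, none of them called.

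Slc7a7 (y+LAT1) was lower under dex in WT lungs and not called in KO lungs. It measured 2.05, 2.13 and 2.22 in WT dex 8 h lungs, against 2.56, 2.75 and 2.54 in WT saline 8 h lungs. At 4 h it was 2.21, 2.29, 2.29 and 2.06 in WT dex lungs, against 2.78, 2.84, 2.63 and 2.79 in WT saline lungs. These groups did not overlap, and Slc7a7 fell by 0.48 on the log2 scale at 8 h (SE 0.0970, adjusted p = 0.000724) and by 0.55 at 4 h (SE 0.0840, adjusted p = 1.54e-05). In KO lungs its change was 0.06 at 8 h (95% confidence interval -0.11 to 0.23) and -0.01 at 4 h (-0.20 to 0.18), and dex and saline arrays overlapped. People who lack functional SLC7A7 can develop alveolar proteinosis, and macrophages express the gene. Of all genes, 25.8% were called higher and 17.2% lower in KO at 8 h, and 25.0% and 17.6% in KO at 4 h. In WT the shares of all genes were 9.32% and 14.3% at 8 h, and 14.3% and 22.3% at 4 h. The marker counts that follow stand beside these shares. Of 11 tested alveolar macrophage markers, 5 were called higher and 3 lower in KO at 8 h, 4 higher and 2 lower in KO at 4 h, 1 higher and 1 lower in WT at 8 h, and 2 higher and 1 lower in WT at 4 h. Their summed level did not overlap in KO, at 147 to 169 in dex 8 h against 110 to 127 in saline 8 h lungs and 134 to 176 in dex 4 h against 106 to 119 in saline 4 h lungs. It overlapped in WT, at 136 to 154 in dex 8 h against 126 to 143 in saline 8 h lungs and 136 to 154 in dex 4 h against 121 to 144 in saline 4 h lungs. The KO saline arrays are those with the low ratio of bright to dim probes, and no marker sum was computed with that ratio as a covariate. Of 14 markers of monocytes, interstitial macrophages and dendritic cells, 0 were called higher and 4 lower in WT at 8 h, 1 higher and 6 lower in WT at 4 h, 1 higher and 6 lower in KO at 8 h, and 1 higher and 7 lower in KO at 4 h. Over 13 of them, with a value on every array, the summed level was 13.9 to 16.9 in WT dex 8 h against 18.2 to 20.7 in WT saline 8 h lungs, and 16.5 to 24.3 in KO dex 8 h against 18.6 to 21.8 in KO saline 8 h lungs, which overlapped. At 4 h the sums were 15.3 to 18.9 (median 15.7) in WT dex against 17.2 to 21.5 (median 21.3) in WT saline lungs. In KO lungs at 4 h they were 15.02 to 20.02 (median 17.0) under dex against 19.3 to 24.9 (median 21.0) under saline. The 4 h medians were thus lower under dex in both genotypes, and the 4 h ranges overlapped. The 8 h medians were 16.4 in WT dex against 19.5 in WT saline lungs, and 20.4 in KO dex against 19.8 in KO saline lungs. The part of either marker list in the Slc7a7 result was not tested.

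Slc7a11 (xCT) gave dim signals. Its brighter kept probe was well above background on 22 of 29 arrays and the other kept probe on 20 of 29. It was the 1 member called lower in KO lungs, at 4 h, with -7.13, -6.65, -5.88 and -6.98 under dex, against -3.92, -6.09 and -5.29 under saline. The groups overlapped, and the difference was -1.56 (SE 0.450, adjusted p = 0.00714). It rested on the KO saline 4 h array with replicate number 41, without which it was -0.97 (adjusted p = 0.0925), and the ratio covariate (-1.59, adjusted p = 0.094) and quantile normalization (-1.40, adjusted p = 0.068) also ended the call. The other kept probe had a difference of -1.78 (adjusted p = 0.0385). Slc7a2 (CAT2) and Slc1a5 (ASCT2) were not called in any dex comparison. Their log2 changes lay between -0.18 and 0.16 for Slc7a2, with 95% confidence intervals inside -0.34 to 0.32, and between -0.00 and 0.24 for Slc1a5, with intervals inside -0.19 to 0.44. The Slc1a5 change in KO at 4 h missed the threshold (adjusted p = 0.0514).

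**Figure D3:**
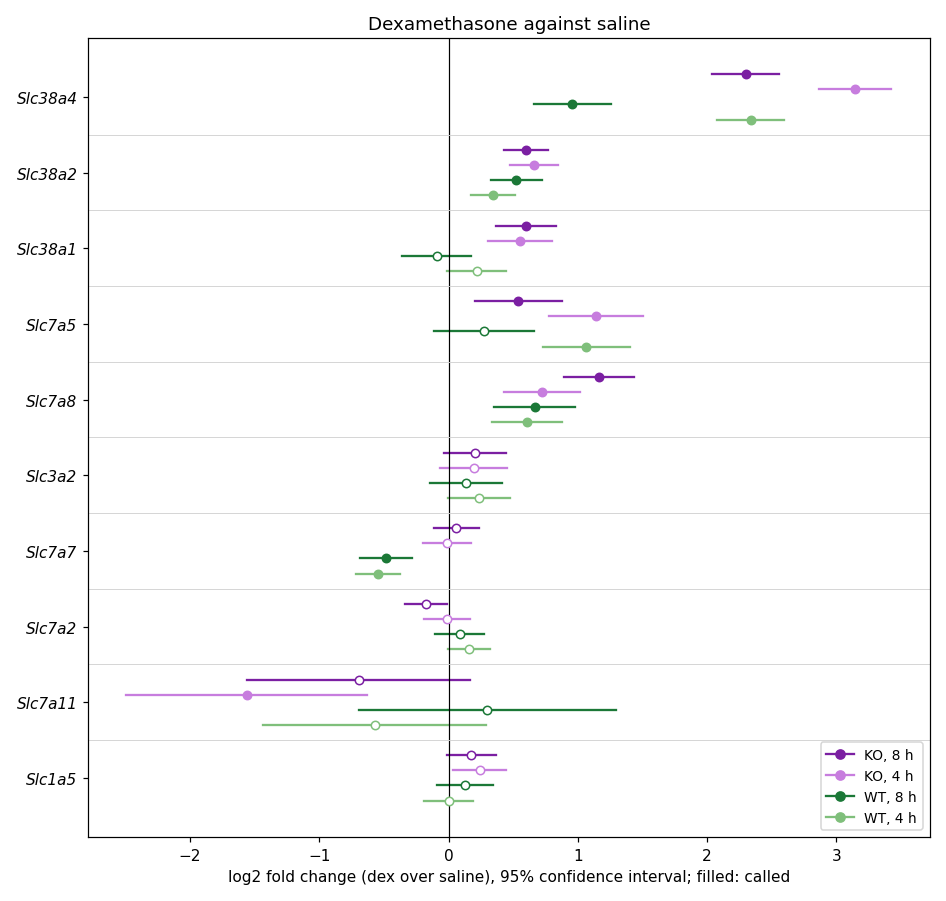
Log2 change of the 10 transporters, dex over saline (x axis, with 95% confidence intervals), in KO and WT lungs at 8 h and 4 h; filled points are called. Slc38a4, Slc38a2 and Slc7a8 are filled and above 0 in all 4 comparisons, Slc7a7 is filled and below 0 in WT, and the Slc7a11 intervals are the widest.

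The difference of the dex effect between KO and WT lungs was called for 3 members at 8 h, all higher in KO, and for 0 lower. Of all genes, 4.92% were called higher and 1.60% lower. At 4 h it was called higher in KO for 2 members and lower for 0, against 13.8% and 3.15% of all genes. The median difference over all genes was 0.16 at 8 h and 0.11 at 4 h, and 0.15 and 0.24 with each array scaled to its median. For Slc38a4 the dex effect was larger in KO by 1.34 at 8 h (SE 0.191, adjusted p = 0.00123) and by 0.81 at 4 h (SE 0.184, adjusted p = 0.00833). The second Slc38a4 probe gave 1.02 at 8 h (adjusted p = 0.0244) and 0.46 at 4 h (adjusted p = 0.206). The ratio covariate left the difference at 8 h called (1.29, adjusted p = 0.012) and ended the call at 4 h (0.72, adjusted p = 0.26). For Slc7a7 the KO minus WT difference was 0.55 at 8 h (SE 0.128, adjusted p = 0.0190) and 0.53 at 4 h (SE 0.124, adjusted p = 0.00875). Neither was called with the ratio covariate, at 0.43 (adjusted p = 0.084) and 0.36 (adjusted p = 0.33), and the call at 8 h was lost without the WT saline 8 h array with replicate number 38 (0.48, adjusted p = 0.0548) and with the slide as a fixed block (0.30, adjusted p = 0.069). For the brighter Slc38a1 probe the difference was 0.69 at 8 h (SE 0.170, adjusted p = 0.0218), while the dimmer probe gave 0.12 (adjusted p = 0.736); leaving out either of 2 WT dex 8 h arrays or 1 KO dex 8 h array ended the call (0.55, 0.63 and 0.64), as did a fixed slide block (0.67, adjusted p = 0.055) and the ratio covariate (0.58, adjusted p = 0.090). Nor was it called with quantile normalization (0.61), median scaling (0.68), normexp (0.64) or the deposited table (0.65), with adjusted p from 0.054 to 0.131. These differences and the single comparisons share arrays.

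Compared directly under dexamethasone, KO lungs had more signal than WT lungs for 3 members at 8 h and 1 at 4 h, and less for 0 at either time. Of all genes, 3.02% were called higher and 1.93% lower at 8 h, and 0.345% and 0.625% at 4 h. Slc38a4 was 1.62-fold higher in KO dex than in WT dex lungs at 8 h (log2 0.70, SE 0.135, adjusted p = 0.00379) and 1.56-fold higher at 4 h (log2 0.64, SE 0.125, adjusted p = 0.00856), with no overlap between arrays. The dimmer probe gave 0.62 at 8 h (adjusted p = 0.0443) and 0.55 at 4 h (adjusted p = 0.161), and with only the 2 groups in the fit the 8 h difference of the brighter probe was not called (adjusted p = 0.063). With each array scaled to its median the 4 h difference was 0.61 (adjusted p = 0.052). With the slide as a block, 3 members were called at 4 h, Slc38a4 (0.74 with a fixed block, adjusted p = 0.032), Slc7a7 (0.29, adjusted p = 0.031) and, lower in KO, Slc1a5 (-0.35, adjusted p = 0.034). At 8 h Slc7a8 was higher by 0.53 (SE 0.142, adjusted p = 0.0301) and Slc7a7 by 0.37 (SE 0.0908, adjusted p = 0.0189). The Slc7a8 call was lost without any of 4 arrays (0.38 to 0.56, adjusted p = 0.0506 to 0.159) and the Slc7a7 call without either of 2 WT dex 8 h arrays (0.33 and 0.37). With the slide as a fixed block neither was called, at 0.52 for Slc7a8 (adjusted p = 0.106) and 0.18 for Slc7a7 (adjusted p = 0.196), and no slide held both groups. Nor was either called with only these groups in the fit (adjusted p = 0.233 and 0.119).

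Under saline, Slc38a4, Slc38a1, Slc1a5 and Slc38a2 were called lower in KO and Slc7a2 and Slc7a11 higher at 1 time or both, and many of these calls depended on the processing. At 8 h, 1 member was called higher and 3 lower in KO, against 5.03% and 8.76% of all genes. At 4 h, 2 were called higher and 2 lower, against 6.07% and 19.0% of all genes. The ratio covariate ended all 4 calls at 4 h and, at 8 h, those of Slc1a5 (-0.18, adjusted p = 0.227) and Slc7a2 (0.21, adjusted p = 0.125). Slc38a4 measured -1.24 in KO saline 8 h lungs on average and -0.60 in WT saline 8 h lungs, a difference of -0.64 without overlap (SE 0.135, adjusted p = 0.00428), which on the dimmer probe was -0.40 (adjusted p = 0.118); at 4 h the difference was -0.17 (95% confidence interval -0.45 to 0.11). Slc38a1 was lower in KO by 0.55 at 8 h on its brighter probe (adjusted p = 0.00522), and the dimmer probe had a difference of -0.02. Slc1a5 measured 3.74, 3.67 and 3.74 in KO saline 4 h lungs, against 4.40, 4.16, 4.27 and 4.23 in WT saline 4 h lungs. These did not overlap (log2 difference -0.55, SE 0.0977, adjusted p = 0.000737), and with the ratio covariate the difference was -0.31 (adjusted p = 0.41). At 8 h the Slc1a5 difference was -0.30 (adjusted p = 0.0453), and 13 of the 29 fits with an array left out ended that call, the farthest at -0.16 without the WT saline 8 h array with replicate number 38. Slc38a2 was lower in KO at 4 h by 0.41 (adjusted p = 0.00288), by 0.24 with quantile normalization (adjusted p = 0.052) and by 0.11 on the dimmer probe (adjusted p = 0.65), and had a difference of -0.03 at 8 h. Slc7a2 was higher in KO by 0.29 at 8 h (adjusted p = 0.0279) and by 0.32 at 4 h (adjusted p = 0.00942), and quantile normalization (0.32 and 0.17) ended both calls, as did leaving out any of 4 arrays at 8 h (0.21 to 0.30) or the KO array with replicate number 43 at 4 h (0.25). Slc7a11 was higher in KO by 1.26 at 4 h (adjusted p = 0.0431), by 0.67 without the KO saline 4 h array with replicate number 41, and leaving out any of 4 other arrays also ended the call (1.13 to 1.36).

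**Figure D4:**
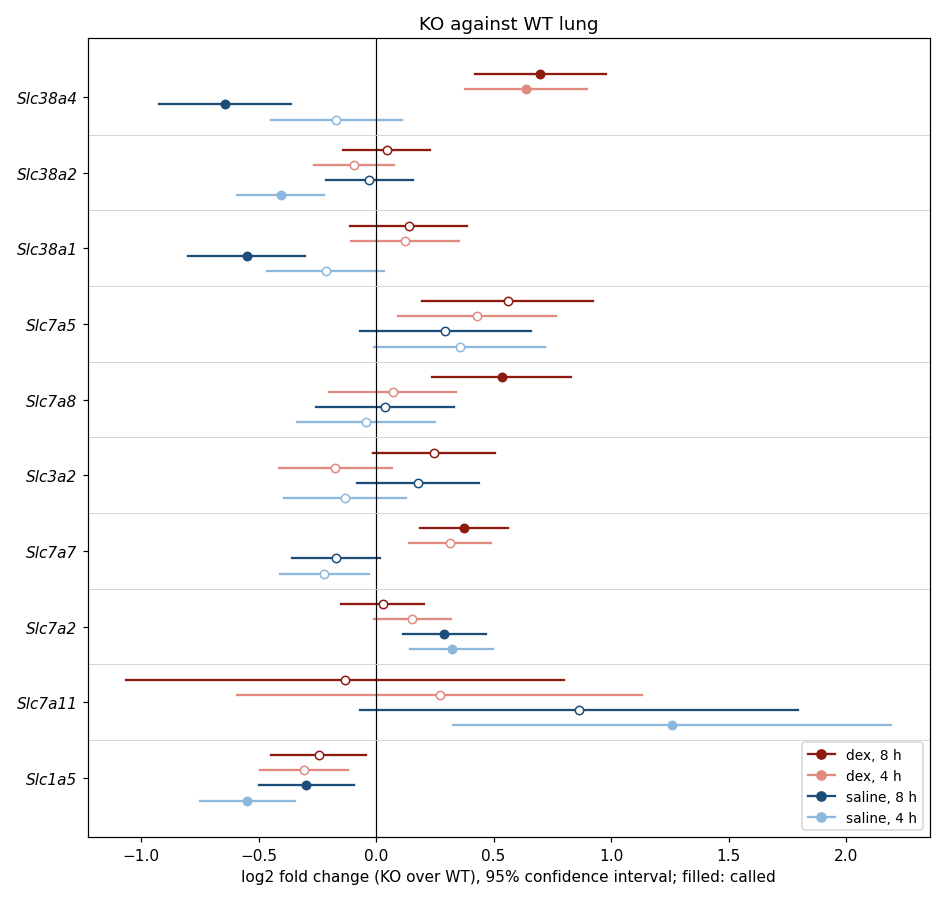
Log2 difference of the 10 transporters, KO over WT (x axis, with 95% confidence intervals), under dex and under saline at 8 h and 4 h; filled points are called. Slc38a4 lies above 0 under dex at both times and below 0 under saline at 8 h, and the Slc1a5 points are below 0 in all 4 settings.

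Averaged over the 4 settings of treatment and time, 2 members were higher and 1 lower in KO, against 8.27% and 11.2% of all genes. Slc1a5 was lower in KO by 0.35 (SE 0.0480, adjusted p = 3.35e-05), and its difference with the ratio covariate was -0.27 (adjusted p = 0.007). Slc7a5 was higher in KO by 0.41 (SE 0.0862, adjusted p = 0.00206), although none of its 4 single differences, 0.29 to 0.56, was called. Slc7a2 was higher in KO by 0.20 (SE 0.0421, adjusted p = 0.00220), which was not called with the ratio covariate (0.14, adjusted p = 0.084).

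Over time, Slc38a4 was the 1 member called in each comparison of 8 h with 4 h. Its dex effect at 8 h was smaller than at 4 h by 0.84 in KO (SE 0.184, adjusted p = 0.0101) and by 1.38 in WT (SE 0.191, adjusted p = 6.25e-05). In KO 0 members were called higher and 1 lower, against 1.22% and 1.79% of all genes, and in WT 0 and 1, against 2.87% and 3.14%. On the dimmer probe the change was -0.06 in KO (adjusted p = 0.970) and -0.62 in WT (adjusted p = 0.161), and neither was called. Under saline Slc38a4 was higher at 8 h than at 4 h by 0.65 over both genotypes (SE 0.0957, adjusted p = 0.000178). That made 1 member higher and 0 lower, against 2.08% and 1.18% of all genes, and the dimmer probe gave 0.37 (adjusted p = 0.102).

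Of 41 other amino acid transporters listed, 33 were tested. In KO lungs 33.3% were called higher and 18.2% lower at 8 h (11 and 6 genes), against 25.8% and 17.2% of all genes, and 30.3% and 18.2% at 4 h (10 and 6), against 25.0% and 17.6%, so the KO shares lower were near those of all genes. In WT lungs 27.3% were called higher and 12.1% lower at 8 h (9 and 4), against 9.32% and 14.3% of all genes, and 24.2% and 30.3% at 4 h (8 and 10), against 14.3% and 22.3%. Slc43a2 (LAT4), a facilitative leucine transporter, was higher under dex in each, by log2 1.62 in KO at 8 h, 1.54 in KO at 4 h, 1.24 in WT at 8 h and 1.86 in WT at 4 h. Slc3a1, the heavy chain of the cystine transporter, was higher by 0.95 in KO at 4 h, 0.92 in WT at 8 h and 1.18 in WT at 4 h. Slc7a6, which encodes y+LAT2, was higher under dex by 0.80 in KO at 8 h and 0.86 in KO at 4 h, and Slc6a9, a glycine transporter, by 0.69 in KO at 8 h. Slc43a1 (LAT3) was higher under dex by 0.73 at 8 h and 0.88 at 4 h in KO, and by 0.84 and 1.12 in WT. Slc7a10, a small neutral amino acid exchanger, fell by 2.47 at 8 h and 0.94 at 4 h in KO. In WT it fell by 2.08 at 8 h and 1.15 at 4 h. Slc1a1, a glutamate transporter, fell by 0.85 in KO at 4 h. Slc38a5 (SNAT5) fell less under dex in KO than in WT at 8 h, with log2 changes of -0.29 in KO (adjusted p = 0.0491) and -1.13 in WT, and at 4 h the changes were 0.21 in KO (adjusted p = 0.212) and -0.50 in WT (adjusted p = 0.00185). The KO minus WT difference of these effects was 0.83 at 8 h (adjusted p = 0.0138) and 0.70 at 4 h (adjusted p = 0.0114), and neither was called with the ratio covariate (0.66, adjusted p = 0.0675, and 0.44, adjusted p = 0.382).

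Enzymes that use the same amino acids were examined beside the carriers. Glul, which makes glutamine from glutamate, was higher under dex by log2 1.63 in KO at 8 h, 2.32 in KO at 4 h, 0.85 in WT at 8 h and 1.91 in WT at 4 h. Its dex effect was larger in KO than in WT by 0.78 at 8 h (adjusted p = 0.0029) and 0.41 at 4 h (adjusted p = 0.0282), and with the ratio covariate by 0.72 at 8 h (adjusted p = 0.0243) and 0.32 at 4 h, where the call was lost (adjusted p = 0.393). Of 8 tested glutamine and glutamate enzymes, 4 were called higher and 1 lower in KO at each time, 2 and 0 in WT at 8 h, and 3 and 1 in WT at 4 h. The shares higher were 50% in KO at each time, 25.0% in WT at 8 h and 37.5% in WT at 4 h, against 25.8%, 25.0%, 9.32% and 14.3% of all genes. Gls2, a glutaminase, was among those higher in each, by 0.50 to 0.59. Of 9 tested genes of arginine use, 2 were called higher and 3 lower in KO at 8 h, 2 and 6 in KO at 4 h, 0 and 2 in WT at 8 h, and 1 and 5 in WT at 4 h. The shares lower were 33.3% in KO at 8 h, 66.7% in KO at 4 h, 22.2% in WT at 8 h and 55.6% in WT at 4 h, against 17.2%, 17.6%, 14.3% and 22.3% of all genes, and the shares higher were below those of all genes. Arg2, the mitochondrial arginase, was higher by 1.34 in KO at 8 h, 1.88 in KO at 4 h and 1.41 in WT at 4 h. Gatm, which makes the creatine precursor from arginine, fell by 1.46 at 8 h and 1.10 at 4 h in KO. In WT it fell by 1.39 at 8 h and 0.60 at 4 h. Nos3, the endothelial nitric oxide synthase, fell in each by 0.46 to 0.64.

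Of 24 tested genes of amino acid deprivation and the response factor ATF4, 10 were called higher and 5 lower in KO at 8 h, 7 and 6 in KO at 4 h, 4 and 4 in WT at 8 h, and 6 and 6 in WT at 4 h. As shares higher and lower these were 41.7% and 20.8% in KO at 8 h, 29.2% and 25.0% in KO at 4 h, 16.7% and 16.7% in WT at 8 h, and 25.0% and 25.0% in WT at 4 h, against 25.8% and 17.2%, 25.0% and 17.6%, 9.32% and 14.3%, and 14.3% and 22.3% of all genes. Ddit4, an inhibitor of mTORC1 signalling, was higher by 1.38 in KO at 8 h, 2.57 in KO at 4 h and 2.14 in WT at 4 h. Cth, which makes cysteine, was higher by 0.59 at 8 h and 1.31 at 4 h in KO. In WT it was higher by 0.66 at 8 h and 1.20 at 4 h. Cth was lower in KO than in WT in all 4 settings by 0.93 to 1.16, and the ratio covariate left these calls in place. Chac1, which degrades glutathione, fell by 1.03 in KO at 4 h and by 0.92 in WT at 4 h, and Phgdh, the first enzyme of serine synthesis, by 1.30 in WT at 8 h. Of 11 tested NRF2 and glutathione genes, which share regulation with Slc7a11, 2 were called higher and 1 lower in KO at 8 h, 1 and 1 in KO at 4 h, 0 and 0 in WT at 8 h, and 1 and 4 in WT at 4 h. These shares were below those of all genes except for the genes lower in WT at 4 h, 36.4% against 22.3%. Among them Nfe2l2, which encodes NRF2, was higher under dex by 0.38 in KO at 8 h and 0.33 in KO at 4 h, the second not called with the ratio covariate (0.26, adjusted p = 0.139). Hmox1 fell under dex by 0.62 in WT at 4 h.

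The genes whose 8 group means ran closest to those of Slc38a4, among 15076 compared, were Flvcr2, Slco2b1 and Trim9, with Pearson r of 0.996, 0.995 and 0.995, and 309 genes had an r over 0.95. For Slc7a5 they were Napepld, Slc24a4 and Dst (r = 0.996, 0.985 and 0.985), and 15 genes had an r over 0.95. For Slc7a8 they were Srpx, Bbox1 and Flywch2 (r = 0.991, 0.982 and 0.976; 33 genes over 0.95). For the dim Slc7a11 they were Syt9, Lsm11 and Shh (r = 0.978, 0.976 and 0.973; 7 genes over 0.95). These are descriptions over 8 means that share arrays and scaling.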

How the data were processed

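Total RNA of mouse lung was labelled with Cy3 and hybridised to Agilent 4x44K arrays, as the labels' protocols state. Each deposited scanner file gives spot intensity, produced per the file headers by Feature Extraction 10.7.3.1 (10.6 per the submitters' processing notes); the processed signal is background-subtracted and not normalized between arrays. The deposited series table holds log2 values with no stated normalization and served as an alternative. Control spots and outlier-marked spots (0.101 to 0.908% of each array) were left out, spots of a probe were averaged, and no spot was saturated. From the log2 processed signal, the 75th percentile of each array was subtracted. That percentile was 1957 ± 224 (SD, n = 15) on dex arrays and 2574 ± 358 (SD, n = 14) on saline arrays, and 75.5 to 88.5% of spots were well above background; the number of arrays limits the precision. A probe was kept if 1 group or more had 3 or more arrays on which it was well above background (33931 probes). Accessions were matched to a RefSeq table of GRCm38.p6, which named 24844 of 41174 probes with 1 gene; promoter windows are from RefSeq, GRCm38.p6. Probe coordinates, which the files give on mm9, are not printed. The brightest kept probe stood for a gene.

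A model with a mean for each of the 8 groups was fitted in limma 3.58.1 (R 4.3.3) over all 29 arrays (lmFit, eBayes), and p-values were adjusted by Benjamini-Hochberg over 15350 genes within each of 14 comparisons. Of these genes, 432 lacked a value on some array and were fitted without it. The fit was tested on simulated data. Arrays lay on 8 slides of 2 to 4 arrays, all of different groups; arrays of a group correlated with r = 0.971 to 0.992 and none were identical. Alternatives covered the scaling, background correction, filter, choice of probe, slide as a block, weights, the bright to dim ratio, only the groups compared, and leaving out each array.

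The members and the gene lists were chosen with earlier results of these data known. The text names all members, Klf15, Fkbp5 and Tsc22d3, and for members changed at least 2-fold the 3 genes of most similar group means. From each pathway list, up to 4 called genes of lowest p in each dex comparison and up to 2 in each genotype comparison were eligible. Only some of these are named above. Vldlr, of the amino acid deprivation list, was eligible and left out, although called higher under dex in all 4 comparisons by log2 0.78 to 1.12. For a list gene, a comparison not given can still be one where it was called. Direct differences between KO and WT were called in 1 setting or more for Slc43a1, Slc7a10, Slc38a5, Ddit4, Arg2 and Nfe2l2, among others, and are not given above. Summed marker levels are on the linear scale, over the genes with a value on every array, and without the ratio covariate.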

Additional observations from a re-analysis of the deposited data

Results flagged for a closer look

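For 7 results the effect of dexamethasone differed between genotypes or times. The KO minus WT difference of the dex effect was 1.34 at 8 h and 0.807 at 4 h for Slc38a4, 0.545 at 8 h and 0.534 at 4 h for Slc7a7, and 0.690 at 8 h for the brighter Slc38a1 probe, on the log2 scale. The 8 h minus 4 h difference of the Slc38a4 dex effect was -0.844 in KO and -1.38 in WT. All 7 were tested in the limma fit, with adjusted p-values of 6.25e-05 to 0.0218.

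The values of 1 member in 1 group of 4 arrays made a set, and in 5 of 50 such sets 1 array lay far from the other 3. Chance alone gives about 1 in 20 for a single set, and the sets share arrays and are not independent. These were Slc3a2 at 4.38 in a KO dex 4 h lung, Slc7a2 at -2.66 in a WT dex 4 h lung, Slc7a11 at -4.90 and Slc38a1 at 0.730 in KO saline 8 h lungs, and Slc1a5 at 3.93 in a KO dex 8 h lung.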

How the results depend on the processing

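No paired analysis was possible because replicate numbers are not shared between groups. Under all alternatives run, the calls remained for Slc38a4 and Slc7a8 in the 4 dex comparisons. They also remained for Slc38a2 under dex in KO at both times, Slc7a5 under dex at 4 h in both genotypes, and Slc7a7 under dex in WT at both times. The genotype difference of the Slc38a4 dex effect at 8 h remained called, while its direct KO against WT differences did not remain called in every alternative. The KO against WT differences of Slc1a5 and Slc7a5 averaged over the settings remained called. With the dimmest probe the Slc38a1 dex change in KO reversed, to -0.250 at 8 h and -0.469 at 4 h. The number of members called moved as follows, and the cause was not tested. Smaller moves of a count are not listed, so a setting not named here can still have lost or gained a call. KO against WT under dex at 8 h, 3 called, gave 0 with only the groups compared and 1 to 4 with an array left out (1 without the WT array with replicate number 55). At 4 h, 1 called, it gave 0 with median scaling or the dimmest probe, 2 with quantile normalization or the deposited table, 3 with the slide as a fixed or random block, and 1 to 2 with an array left out (2 without the KO array with replicate number 59). KO against WT under saline at 8 h, 4 called, gave 1 with median scaling, the dimmest probe or only the groups compared, 2 with quantile normalization, normexp, the deposited table, the mean of probes or the ratio covariate, and 2 to 4 with an array left out (replicate numbers 39, 46 and 47 gave 2). At 4 h, 4 called, it gave 0 with the ratio covariate, 1 with quantile normalization, normexp or the deposited table, and 2 with the mean of probes or the dimmest probe. Averaged over settings, 3 called, it gave 5 with the mean of probes, a fixed slide block or array weights and 6 with a random slide block. The genotype difference of the dex effect gave 1 (3 called) at 8 h with median scaling, normexp, the deposited table, a fixed slide block or the ratio covariate, and at 4 h (2 called) 1 with the deposited table or the dimmest probe and 0 with the ratio covariate. The time difference of the dex effect, 1 called, gave in KO 0 with the mean of probes or the dimmest probe and 2 with array weights. In WT it gave 0 with the dimmest probe, 2 with the filter on all arrays, either slide block or array weights, and 1 to 3 with an array left out (replicate numbers 39, 49 and 54 moved it). Saline at 8 h against 4 h, 1 called, gave 0 with the dimmest probe, 2 with a random slide block or only the groups compared, 3 with array weights, and 1 to 2 with an array left out (2 without replicate number 61). Signal near background limits Slc7a11, and the group sizes of 3 and 4 limit small differences.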
